A study of Mus musculus with 2 samples.

Results

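The genes of the proteasome and the ubiquitin system were examined in mouse morulae that had been injected with siRNA against leukemia inhibitory factor (LIF) or with scrambled siRNA. The members were chosen by the words that open a gene's name on the array, such as proteasome, ubiquitin, cullin, F-box, COP9 and anaphase, a rule that uses no measured value. They numbered 72 spots with 67 gene names, of 8735 gene spots with 6113 names on each array. All embryos were whole B6CBF1 mouse embryos of 4 d, injected into the cytoplasm at the two-pronuclear stage and cultured to the morula stage. The LIF-siRNA group and the scrambled-siRNA group each received 1.0 fmol of siRNA in 1 pl according to the labels, so the controls carried the injection and an siRNA as well. Total RNA of pooled embryos was labeled with Cy5 for LIF-siRNA and with Cy3 for scrambled siRNA, and the pair was hybridized on 2 arrays with the same dye orientation. A free-text label on the samples speaks of embryonic stem cells and more replicates, which goes against the titles and the tissue label.

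Ubiquitin is a small protein that is attached to other proteins by an activating enzyme (E1), a conjugating enzyme (E2) and a ligase (E3) acting in turn, and deubiquitinating enzymes take it off again. Chains of ubiquitin direct a protein to the 26S proteasome, in which a barrel of alpha and beta subunits, the 20S core, cuts the protein and a regulatory cap with ATPase and non-ATPase subunits binds and unfolds it. SUMO and Nedd8 are related tags with E1 and E2 enzymes of their own, and the COP9 signalosome removes Nedd8 from cullin ligases. In the embryo before implantation this system takes part in clearing maternal proteins, in the cell cycle and in the turnover of signaling proteins.

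Across the members, most ratios of LIF-siRNA to scrambled siRNA lay near 1, and 2 genes passed the ratio and signal criteria of the study's methods, both lower in LIF-siRNA-treated embryos. These were Fbxo3, the substrate-binding subunit of a ubiquitin ligase, at 3.47-fold lower, and Ubb, one of the polyubiquitin genes, at 2.08-fold lower. By these criteria a gene is up at a mean ratio above 2 or down below 0.5, provided that the mean processed signal of at least 1 dye exceeds 1000. Of 72 member spots, 60 passed the signal threshold, which is 83.3%, against 40.4% of all gene spots. Among these, 0 were up and 2 were down, where 5.33% of all spots past the signal threshold were up, 5.42% were down and 10.7% passed either way. Of 68 member spots that could be compared, 27 were higher on both arrays, where 36.7% of all compared probes were, and 33 were lower on both, where 36.8% of all were. The remaining 8 had opposite signs on the arrays. The median log2 ratio of the members was -0.08 (-0.07 on array 1 and -0.12 on array 2), and that of all 8079 compared probes was -0.004.

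The members spread less around a ratio of 1 than the array as a whole. A mean log2 ratio within 0.5 of 0 was found for 52 of 68 members (76.5%) and for 60.1% of all probes, and past the signal threshold for 80.0% of members and 61.8% of all. A mean beyond 2-fold was found for 2 members, where 12.2% of all compared probes lay beyond it. The median SD between the arrays was 0.149 on the log2 scale for the members and 0.249 for all probes, and past the signal threshold it was 0.143 and 0.191. As a description, the log2 ratios of the arrays correlated at 0.781 (Pearson) and 0.815 (Spearman) over 68 member spots and at 0.639 and 0.632 over all probes, where the points share the same arrays and dyes. In the plot of both arrays the members form an elongated cloud along the diagonal inside that of all probes.

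**Figure D1:**
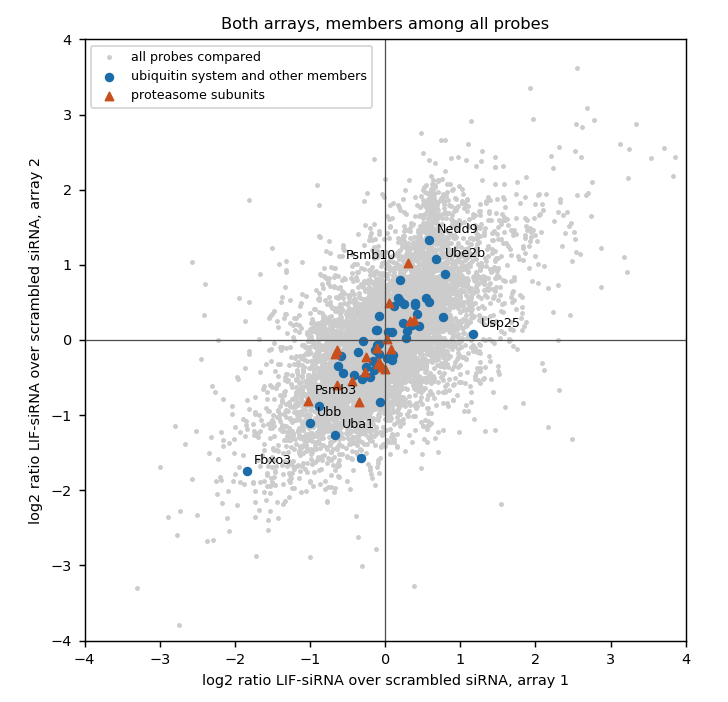
The log2 ratio of LIF-siRNA over scrambled siRNA on array 1 (x axis) and array 2 (y axis) for all 8079 compared probes (gray), the 19 proteasome subunits (orange triangles) and the other members (blue circles). Among the members, Fbxo3 lies farthest toward the lower left at -1.84 and -1.75, and Usp25, at 1.18 and 0.08, was beyond 2-fold on array 1 only.

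When the ratio was tested with limma over all 8079 probes, 0 members had an adjusted p under 0.05, where 0% of all probes had. The adjusted p of the members ran from 0.058 to 0.993. At an unadjusted p under 0.05 limma gave 12 members, which is 17.6%, where 30.7% of all probes had such a p. Of these members 5 were higher, where 15.9% of all probes were, and 7 were lower, where 14.8% were. The methods' t-test gave 0 members after adjustment, where 0% of all probes were called, and 14 at an unadjusted p under 0.05 (20.6%, where 10.7% of all probes had such a p). With 2 arrays, and no statement that they held separate pools of embryos, these p-values measure the spread between these arrays, which may be technical. The count of limma calls depended on the setting, with 6 of 60 members called when only probes past the signal threshold were tested (10%, where 18.7% of all were) and 7 of 68 with an intensity trend (10.3%, where 14% of all were). Normexp with loess and median centring each called 1 of 68 members (1.47%), where 1.83% and 4.27% of all probes were called.

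Each array held 9651 spots, no gene spot was saturated, and the median signal over background of the gene spots was 6.42 and 6.60 in Cy5 and 5.72 and 4.83 in Cy3. Among the members, 69 spots on array 1 and 68 on array 2 were well above background in both dyes. LIF has no spot that is named for it, so the knockdown could not be checked here, and without a dye swap the effect of dye and of treatment cannot be told apart. Markers of the embryo fitted the tissue label, since Pou5f1, Sox2, cadherin 1 and keratin 8 were well above background in both dyes on both arrays. Their mean log2 ratios were -0.11 for Pou5f1, -2.35 for Sox2, 0.47 for cadherin 1 and -1.95 for keratin 8. Of 3 spots taken for cumulus cell markers, pentaxin related gene and inhibin beta-B were well above background and inhibin beta-C was not. Hyaluronan synthase 2 and the follicle stimulating hormone receptor were also sought and had no spot named for them. The summed signal of all 3 spots was 884 and 875 in LIF-siRNA and 393 and 292 in scrambled siRNA. The oviductal glycoprotein signal was 508 and 624 against 303 and 290, and the hemoglobin spots had no shared direction. Of these 5, hemoglobin X carried most of the signal at 1610 and 1421 against 3979 and 3439. A spot of the adult beta major chain was higher at 97.1 and 105 against 57.8 and 61.8. The other spot of that chain was lower at 58.3 and 79.3 against 68.9 and 87.2. The part of these markers in the results was not tested. In RNA of whole embryos, fewer cells of a type and less RNA per cell cannot be told apart.

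Ubb, which encodes head-to-tail repeats of ubiquitin, was lower in LIF-siRNA-treated embryos. The Ubb signal was 8569 in LIF-siRNA and 17208 in scrambled siRNA on array 1, and 8297 and 17888 on array 2. Both LIF-siRNA values lay under both control values, and the log2 ratio was -1.01 and -1.11, with a mean of -1.06 ± 0.07 (SD, n = 2; limma adjusted p = 0.0721). The share of all probes without overlap of the groups is not given, so this and later statements of overlap only describe single genes. Ubiquitin repeats of different genes are nearly identical in sequence, so the spot may bind RNA of another such gene, and its value is uncertain to that extent.

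Ubiquitin-like proteins did not share a direction. Ubl3, a membrane-anchored member, was higher on both arrays at 0.59 and 0.51 (mean log2 ratio 0.55). Nedd8, the tag of cullins, was at -0.12 and 0.13 (mean 0.003). Ubl4a, listed as GDX, had a mean log2 ratio of -0.40 in 1 clone, while its other clone was not well above background. In all, 7 of 9 spots of ubiquitin and its relatives were compared, 3 higher on both arrays, 3 lower and 1 mixed.

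Of 4 activating enzymes, 3 were lower on both arrays, where 36.8% of all compared probes were, and the median log2 ratio was -0.48. Uba1, the main E1 of ubiquitin, had signals of 8638 in LIF-siRNA and 13728 in scrambled siRNA on array 1, and 7118 and 17083 on array 2. Both LIF-siRNA values were under both control values, with log2 ratios of -0.67 and -1.26 and a mean of -0.97 ± 0.42 (SD, n = 2; limma adjusted p = 0.0937). On array 2 alone Uba1 passed the ratio and signal criteria. Sae1 and Uba2 are the subunits of the SUMO-activating enzyme and differed from each other. Sae1 was at 191 against 352 and 224 against 412, under the signal threshold, with log2 ratios of -0.89 and -0.88 and a mean of -0.88 (limma adjusted p = 0.0865). Under normexp with loess the mean of Sae1 was -0.66, so its size depended on the processing. Uba2 was close to 1, with a mean log2 ratio of -0.08. Uba3, the catalytic subunit of the Nedd8-activating enzyme and the highest of this role, was at 0.09 and 0.10 (mean 0.10).

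**Figure D2:**
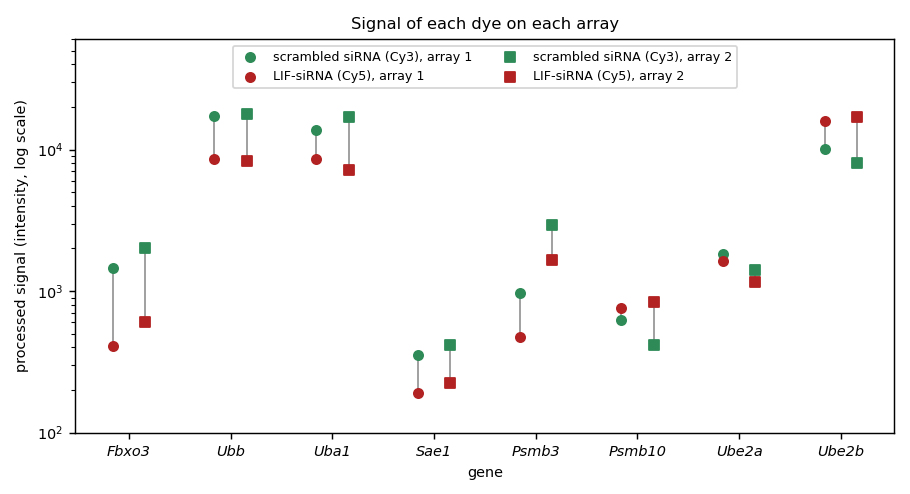
Processed signal (y axis, intensity on a log scale) of 8 members (x axis) in each dye on array 1 (circles) and array 2 (squares), green for scrambled siRNA and red for LIF-siRNA, with a line joining the dyes of an array. Signals can be compared within a gene and not between genes, and in Ubb the LIF-siRNA points at 8569 and 8297 lie under the scrambled points at 17208 and 17888.

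LIF signals through STAT3, and STAT proteins are known to bind palindromes of the form TTCNNNGAA, so the start regions of the members were searched for these letters. Of 58 gene symbols that could be assigned, 47 had a start region in the RefSeq table (GRCm38.p6, windows of 300 bases around the annotated start), which gave 58 windows. Fbxo3 was not among the 47. TTCNNNGAA reads the same way on both strands, and it was found in 4 of 58 member windows (6.9%) and in 8.3% of all 32851 windows of that length. The 4 windows belong to Ubb, Uba1, Nedd4 and Ubr1, whose mean log2 ratios were -1.06, -0.97, -0.45 and -0.04. They are shown because they carry the only matches among these member windows, each on the strand of its gene with the match in capitals. The Ubb window is chr11:62551481-62551780 on the plus strand, that of Uba1 chrX:20658052-20658351 on the plus strand, that of Nedd4 chr9:72693048-72693347 on the plus strand and that of Ubr1 chr2:120970666-120970965 on the minus strand. The match starts 12 bases before the annotated start in Ubb, 139 in Uba1, 23 in Nedd4 and 43 in Ubr1.
Ubb: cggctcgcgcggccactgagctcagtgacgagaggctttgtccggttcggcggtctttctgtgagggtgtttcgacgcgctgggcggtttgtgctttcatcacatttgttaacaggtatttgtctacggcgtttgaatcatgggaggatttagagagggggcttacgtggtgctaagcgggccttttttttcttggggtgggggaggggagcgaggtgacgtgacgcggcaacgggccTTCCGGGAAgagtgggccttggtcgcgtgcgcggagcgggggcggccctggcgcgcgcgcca
Uba1: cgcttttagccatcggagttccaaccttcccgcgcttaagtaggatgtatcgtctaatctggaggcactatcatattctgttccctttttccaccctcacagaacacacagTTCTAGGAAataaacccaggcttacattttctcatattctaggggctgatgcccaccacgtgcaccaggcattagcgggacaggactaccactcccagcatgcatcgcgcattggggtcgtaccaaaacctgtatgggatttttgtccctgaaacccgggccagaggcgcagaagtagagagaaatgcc
Nedd4: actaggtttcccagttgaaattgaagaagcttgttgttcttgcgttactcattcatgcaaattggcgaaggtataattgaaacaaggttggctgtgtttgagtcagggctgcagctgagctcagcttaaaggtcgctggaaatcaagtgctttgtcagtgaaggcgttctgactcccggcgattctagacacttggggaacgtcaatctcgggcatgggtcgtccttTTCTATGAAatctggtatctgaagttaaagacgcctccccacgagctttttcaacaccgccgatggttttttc
Ubr1: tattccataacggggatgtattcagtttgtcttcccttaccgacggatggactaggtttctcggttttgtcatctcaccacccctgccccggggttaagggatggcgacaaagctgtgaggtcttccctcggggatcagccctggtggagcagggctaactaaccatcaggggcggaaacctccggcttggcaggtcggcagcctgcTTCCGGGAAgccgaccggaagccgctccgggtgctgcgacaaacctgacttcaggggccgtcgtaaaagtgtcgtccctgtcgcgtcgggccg
Of the 15 windows of proteasome subunits, 0 held TTCNNNGAA. The CCAAT box, searched as CCAAT on both strands, was in 8 of these 15 windows, in 18 of 58 member windows (31%) and in 37.4% of all windows. Such matches describe the letters of these windows only.

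The conjugating enzymes divided, with 4 of 9 higher on both arrays and 5 lower, and a median log2 ratio of -0.07. Ube2b, a Rad6 homolog that ubiquitinates histone H2B and PCNA, was the highest. Its signal was 16019 in LIF-siRNA against 10031 in scrambled siRNA on array 1 and 16918 against 8030 on array 2, without overlap of the groups. The log2 ratio was 0.68 and 1.08, with a mean of 0.88 ± 0.28 (SD, n = 2; limma adjusted p = 0.0949). Its paralog Ube2a, listed as HR6A, encodes a nearly identical protein and stood on the other side of 1. Ube2a was at 1626 against 1820 and 1154 against 1397, with log2 ratios of -0.16 and -0.28 and a mean of -0.22 (limma adjusted p = 0.512). In Ube2a the values of the groups overlapped between arrays, while within each array LIF-siRNA was the lower.

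The enzyme listed as ubiquitin-conjugating enzyme 4 was also higher, at 11266 against 6460 and 10979 against 5986, with a mean log2 ratio of 0.84 ± 0.05 (SD, n = 2; limma adjusted p = 0.0915). Ubiquitin-conjugating enzyme 5 was at 0.17 and 0.56 (mean log2 ratio 0.37). The lowest of the role was listed as ubiquitin-conjugating enzyme E2N, pseudogene 1, at -0.63 and -0.34 (mean -0.49). Ube3a is counted here by the word conjugating in its listed name, although it is a ligase, and was at -0.21 and -0.49 (mean -0.35). The E2 listed as E2D 2 and ubiquitin-conjugating enzyme 7 were close to 1, with mean log2 ratios of 0.07 and -0.07.

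Among the ligases and their subunits, 13 spots with 11 names were compared, of which 6 were higher on both arrays, 5 lower and 2 mixed, with a median log2 ratio of 0.12, which came to 0.11 on array 1 alone and 0.02 on array 2 alone. Fbxo3 was set apart from the rest of them. Its signal was 410 in LIF-siRNA against 1466 in scrambled siRNA on array 1 and 600 against 2013 on array 2, so that both LIF-siRNA values were under both control values. The log2 ratio was -1.84 and -1.75, with a mean of -1.79 ± 0.06 (SD, n = 2; limma SE 0.21, adjusted p = 0.058), the lowest of all compared members. The signal threshold was passed through the control dye.

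Both other F-box proteins among the members, which choose the substrates of SCF ligases, were on the opposite side of 1. Fbxw2 was present as 2 clones, both higher on both arrays, with mean log2 ratios of 0.39 and 0.54, and Fbxo8 had a mean of 0.29. Cul1, the scaffold of these ligases, was at 0.28 and 0.02 (mean 0.15), while Cul3, the scaffold of another ligase family, was lower on both arrays in both clones at means of -0.25 and -0.14. Siah1a and Siah1b, closely related RING ligases that share 1 UniGene cluster in the files and may share signal, had mean log2 ratios of 0.37 and 0.43. Siah2 was at -0.08 and 0.32 (mean 0.12). Anapc7, a subunit of the anaphase-promoting complex that acts in mitosis, was lower on both arrays at -0.56 and -0.44 (mean -0.50). Nedd4, a HECT ligase, was at -0.07 and -0.83 (mean -0.45), so its value rested mostly on array 2. Ubr1, which recognizes destabilizing N-terminal residues, was at 0.11 and -0.20 (mean -0.04).

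Deubiquitinating enzymes were the role in which the arrays differed most, with a median SD between arrays of 0.429 on the log2 scale over the 5 that were compared. Of these, 3 were higher on both arrays, 1 was lower and 1 was mixed, and the median log2 ratio was 0.36, while it was 0.19 on array 1 and 0.08 on array 2. Usp25 was at 4626 against 2048 on array 1 and 2556 against 2419 on array 2, so that its log2 ratio was 1.18 and then 0.08, with a mean of 0.63 ± 0.78 (SD, n = 2). The enzyme listed as ubiquitin specific protease 23 was at 528 against 658 and 378 against 1120, with log2 ratios of -0.32 and -1.57 and a mean of -0.94 ± 0.88 (SD, n = 2). Each passed the criteria on 1 array and not on the other, so the direction was shared by the arrays and the size was not. Uchl1, a hydrolase abundant in oocytes and neurons, was at 0.19 and 0.80 (mean 0.50), and Usp2 at a mean of 0.36. Usp5, which takes apart free ubiquitin chains, was at 0.02 and -0.25 (mean -0.11). Usp18, which removes the interferon-induced tag ISG15, was not well above background on either array.

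**Figure D3:**
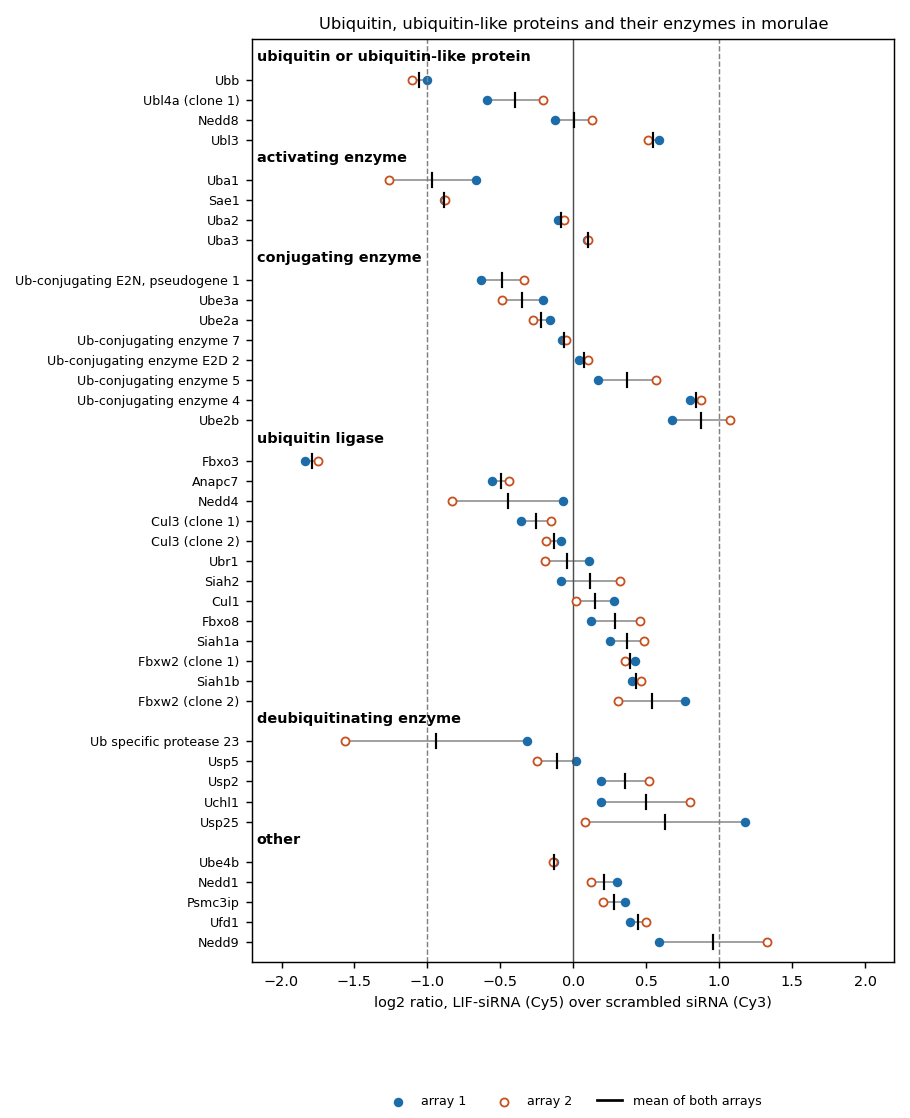
Log2 ratio of LIF-siRNA over scrambled siRNA (x axis) for named members outside the proteasome and the COP9 signalosome, by role, on array 1 (filled circles) and array 2 (open circles), with a black mark at the mean and dashed lines at a ratio of 2 and 0.5. Fbxo3 and Ubb lie beyond the lower dashed line on both arrays, while protease 23 and Usp25 have long lines between their arrays.

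The 19 proteasome subunits were more often lower than higher in LIF-siRNA-treated embryos, by small amounts. On both arrays 12 of them were lower (63.2%, where 36.8% of all compared probes were), 5 were higher and 2 were mixed. The mean ratio was under 1 for 14 of 19, where 50.2% of all probes were under 1. Their median log2 ratio was -0.20, with -0.10 on array 1 alone and -0.22 on array 2 alone, and the range was -0.92 to 0.66. None passed the ratio and signal criteria, and the smallest limma adjusted p among them was 0.0849. The 49 other members that were compared had a median log2 ratio of 0.003, with 22 higher and 21 lower on both arrays. They include Nedd1, Nedd9 and Psmc3ip, which lie outside the ubiquitin system and were higher on both arrays.

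The beta subunits, which include the cutting sites of the core, were lower in the mean in 6 of 7, where 50.2% of all probes were. Their median log2 ratio was -0.20, with -0.09 on array 1 and -0.29 on array 2. Psmb3 was at 476 in LIF-siRNA against 973 in scrambled siRNA on array 1 and at 1669 against 2941 on array 2. Its LIF-siRNA value was the lower within each array, while the values of the groups overlapped between arrays. The log2 ratio was -1.03 and -0.82, with a mean of -0.92 ± 0.15 (SD, n = 2; limma adjusted p = 0.0849), which is 1.90-fold lower and short of the criteria. Psmb2 was at 2047 against 3197 and 1921 against 2902, a mean log2 ratio of -0.62 ± 0.03 (SD, n = 2; limma adjusted p = 0.129). Psmb4 and Psmb6 had means of -0.20 and -0.19, and Psmb1 was at 0.08 and -0.12 (mean -0.02).

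Psmb10, the inducible subunit of the immunoproteasome, was the exception among the beta subunits. Its signal was 763 against 621 on array 1 and 843 against 412 on array 2, both LIF-siRNA values above both control values. The log2 ratio was 0.30 and 1.03, with a mean of 0.66 ± 0.52 (SD, n = 2; limma adjusted p = 0.174), and the signal stayed under the threshold. Psmb7, the constitutive subunit whose place it takes, was at -0.67 and -0.18 (mean -0.43). The other inducible subunits were read under the spelling proteosome. Beta type 9 did not share the direction of Psmb10 and was at 156 against 319 and 159 against 232, with log2 ratios of -1.03 and -0.54 and a mean of -0.78. Beta type 8 was not compared because it was not well above background.

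The alpha subunits, which form the outer rings of the core, lay closer to 1, with a median log2 ratio of -0.11 over 5, which was 0.004 on array 1 and -0.11 on array 2. Psma3 was higher on both arrays at 0.38 and 0.26 (mean 0.32), and Psma2 was lower at a mean of -0.24. Psma7 was at 0.00 and -0.39 (mean -0.19), and Psma4 and Psma6 were at means of 0.01 and -0.11.

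In the regulatory cap, all 3 ATPase subunits among the members were lower on both arrays, where 36.8% of all compared probes were. Their median log2 ratio was -0.49. Psmc4 was at 2061 against 2632 and 1923 against 3413, with log2 ratios of -0.35 and -0.83 and a mean of -0.59 ± 0.34 (SD, n = 2; limma adjusted p = 0.171). Psmc3 was at -0.45 and -0.54 (mean -0.49), and Psmc1 at -0.65 and -0.13 (mean -0.39). The non-ATPase subunits divided. Psmd4, a receptor for ubiquitin chains, and Psmd13 were lower on both arrays at means of -0.34 and -0.21. Psmd7 and Psmd10, the latter an assembly chaperone known as gankyrin, were higher on both arrays at means of 0.27 and 0.29. The activator subunit Psme1 was lower on both arrays at -0.31 and -0.52 (mean -0.41), and Psme3 was not compared because it was not well above background on array 1.

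**Figure D4:**
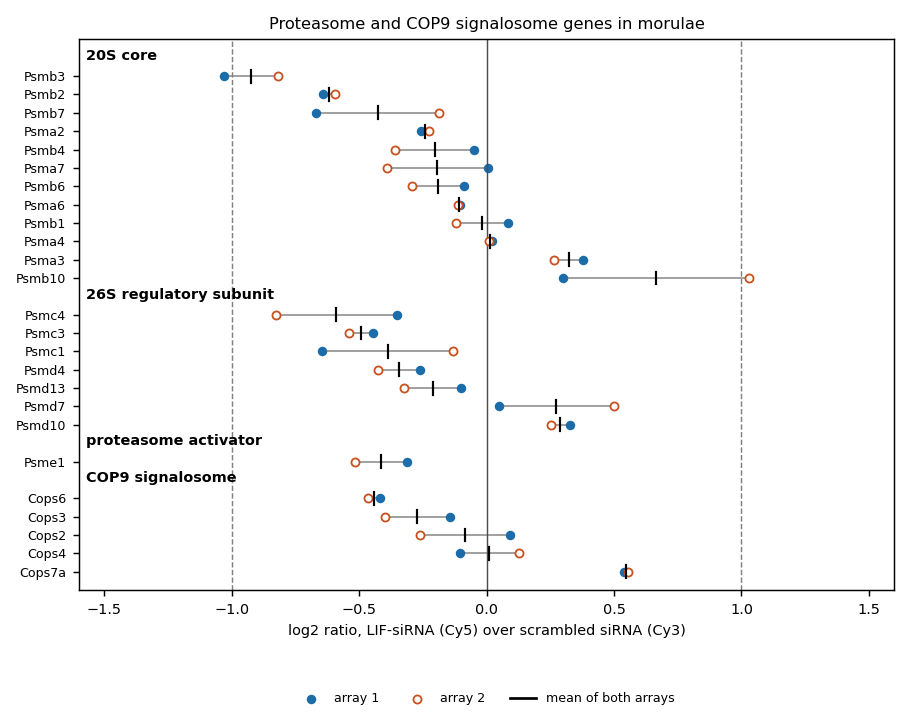
Log2 ratio of LIF-siRNA over scrambled siRNA (x axis) for proteasome subunits, the activator Psme1 and COP9 signalosome subunits, on array 1 (filled circles) and array 2 (open circles), with a black mark at the mean and dashed lines at a ratio of 2 and 0.5. Most subunits lie left of 0 by less than 0.5, and Psmb3 and Psmb10 mark the ends at means of -0.92 and 0.66.

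The COP9 signalosome resembles the proteasome cap in its subunits, and its 5 genes showed no shared direction. Cops7a was at 0.54 and 0.56 (mean log2 ratio 0.55, limma adjusted p = 0.158) and Cops6 at -0.42 and -0.47 (mean -0.44, limma adjusted p = 0.222), each with close values on both arrays. Cops3 was lower on both arrays at a mean of -0.27, and Cops2 and Cops4 were mixed at -0.09 and 0.01.

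The rule also took in 5 genes outside these roles, of which 4 were higher on both arrays, where 36.7% of all compared probes were. Ufd1, a partner of the segregase p97, was at 0.39 and 0.49 (mean 0.44), and Ube4b, which lengthens ubiquitin chains, was at a mean of -0.14. Nedd1, Nedd9 and Psmc3ip are not parts of the ubiquitin system by their known functions, which are at the centrosome, in cell adhesion signaling and in meiotic recombination. Nedd9 had the highest mean log2 ratio of all compared members, at 0.59 and 1.33 (mean 0.96 ± 0.53, SD, n = 2; limma adjusted p = 0.103), with dim signals of 161 against 107 and 85.2 against 33.9. Its control dye was not well above background on array 2, and with another background correction and normalization together (normexp and loess) the mean was 0.38, under that of Ube2b and ubiquitin-conjugating enzyme 4. Nedd1 and Psmc3ip had mean log2 ratios of 0.21 and 0.28.

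Of 32 further genes of the pathway, taken by a list of other names, 31 were compared, and 6 were higher on both arrays (19.4%, where 36.7% of all compared probes were), 14 lower (45.2%, where 36.8% were) and 11 mixed, with a median log2 ratio of -0.15. The signal threshold was passed by 25, and the criteria by 0 of these, where 10.7% of all spots past that threshold passed either way. The lowest that was compared was cytokine inducible SH2-containing protein 1, a SOCS family protein that links cytokine receptors to a ubiquitin ligase. It was at 343 against 955 and 236 against 838, with log2 ratios of -1.48 and -1.83 and a mean of -1.65 ± 0.25 (SD, n = 2; limma adjusted p = 0.058), under the signal threshold. The listed protein 3 of the same family was at 0.03 and 1.65, so its mean of 0.84 ± 1.15 (SD, n = 2) came from array 2. Valosin containing protein, the p97 segregase that works with Ufd1, was lower on both arrays at -0.50 and -0.82 (mean -0.66), while Ufd1 was higher. Beta-transducin repeat containing protein and cyclin F, both F-box proteins, were lower on both arrays at means of -0.92 and -0.80, on the same side as Fbxo3 and unlike Fbxw2 and Fbxo8. S-phase kinase-associated protein 2, another F-box protein, was at -0.07 and 0.42 (mean 0.17). Ornithine decarboxylase antizyme, which takes that enzyme to the proteasome without ubiquitin, had a mean of -0.35, and its inhibitor a mean of 0.66. Mdm2, the ligase of p53, listed as transformed mouse 3T3 cell double minute 2, was at 0.11 and 0.75 (mean 0.43).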

How the data were processed

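RNA of morulae given either siRNA was compared on 2 two-color cDNA arrays. The files are scanner tables from Agilent Feature Extraction, and their headers give a later version than the methods do. The authors deposited a log10 ratio of Cy5 to Cy3, normalized by rank-consistent lowess, which was converted to log2. The deposited intensity columns hold mean and background brightness and the processed, dye-normalized signal, in which low values are replaced by surrogates. The methods give another dose of siRNA than the labels. The table of the whole series was not used.

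The groups were the 2 dyes of an array, and the arrays were taken as 2 replicates. Control spots were dropped, as were 23 gene spots that carried an outlier mark. The ratio and signal criteria were applied to the geometric mean of both arrays. limma 3.58.1 (R 4.3.3; lmFit and eBayes with an intercept, two-sided) tested every probe well above background in 1 or both dyes of each array, and p-values were adjusted by Benjamini-Hochberg and called under 0.05. The fit was tested on simulated data. Other steps used Python 3.11.15, pandas 2.3.3 and numpy 2.4.6. The number of arrays limits the precision.

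Alternatives were normexp (offset 50) with loess, median centring, outliers kept, an intensity trend and other limits on dim probes. Further alternatives were a t-test of the log2 ratios, 1 value per gene name and each array alone. The members and lists were chosen with earlier results of these data known. Members past the criteria, members past the ratio on both arrays and the highest and lowest of each role were named by rule, 19 in all, and the others were named to complete their role. Gene symbols were assigned by hand from the names in the files for 58 of 67 names, and some members are counted but not reported singly here. Start regions came from RefSeq (GRCm38.p6).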

Additional observations from a re-analysis of the deposited data

How the results depend on the processing

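Under normexp with loess and under median centring, the criteria gave 0 members up and 2 down as before, and 67 and 68 of 68 members kept the sign of their mean. The count up was 1 to 1 and the count down 2 to 4 when 1 array was left out, since array 2 alone added Uba1, protease 23 and Ube2b and array 1 alone added Usp25. The median of the members was then -0.116 to -0.073, and that of the proteasome subunits -0.224 to -0.10. The count of limma calls among the members was 0 in the reported fit, 1 with normexp and loess (Fbxo3, adjusted p = 0.0498), 1 with median centring (Fbxo3, 0.0385), 6 over probes past the signal threshold and 7 with an intensity trend. The 6 were Fbxo3, Ubb, Psmb3, Uba1, Ube2b and ubiquitin-conjugating enzyme 4, and the intensity trend added Ubl3. Over all settings, the t-test included, the adjusted p ran from 0.00663 to 0.453 for Fbxo3 and from 0.00544 to 0.456 for Ubb. Over the whole array those settings called 148 of 8079, 345 of 8079, 660 of 3527 and 1133 of 8079 probes, and the cause was not tested. Of the 19 named values, normexp with loess moved 3 by more than the SD between arrays, Cops7a to 0.53, Nedd9 to 0.38 and Fbxo3 to -1.6. The ratio of an array already pairs the groups, so limma and the t-test were paired by array. With 1 group of ratios no further pairing was possible, and the slide could not be a block. Sae1, Nedd4, Nedd9, Siah2, Usp2, protease 23, Psmb10 and the compared Ubl4a clone had mean signals under 1000 in both dyes, where the spread between arrays of all probes was wider.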
